A study of Homo sapiens with 6 samples.

Results

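Protein tyrosine phosphatases remove phosphate from tyrosine and so oppose the tyrosine kinases, among them HER2, the receptor that SK-BR-3 cells overexpress and to which the adaptor GRB2 is coupled. The classical enzymes fall into a receptor class (PTPR genes), which spans the membrane and often carries adhesion-like ectodomains, and a cytosolic class (PTPN genes), whose members carry targeting domains such as SH2, FERM or PDZ domains beside the catalytic domain. Both classes share a catalytic signature built around a cysteine that takes up the phosphate. Several of these enzymes act on ERBB receptors or on SRC.

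Members were the protein-coding genes of the count table whose symbol begins with PTPN and a number, or is PTPR with a letter and at most 1 digit, with 1 cytosolic gene left out. This gave 33 genes of the 30327 in the table, 17 receptor and 16 cytosolic. Poly(A) RNA was sequenced in 6 libraries of SK-BR-3, an established HER2-overexpressing breast cancer line, as 3 libraries labelled si_NC, given a nontargeting siRNA, and 3 labelled si_GRB2, given an siRNA against GRB2. In their titles the treated libraries are called GRB2 overexpressing instead, so GRB2 itself was examined first. It had 123.9, 129.5 and 125.7 CPM (reads of a gene as a share of the library total, per 1e6 reads, scaled by edgeR's TMM factors) in si_NC and 27.8, 28.1 and 29.6 CPM in si_GRB2. All 3 libraries labelled si_GRB2 thus held less GRB2 RNA, the direction of a knockdown and not of the titles, and all directions given here are those of the libraries labelled si_GRB2 against si_NC. The methods give 1 siRNA sequence against GRB2, so what follows from less GRB2 and what that siRNA does to further transcripts cannot be told apart. Nothing in the labels says whether the 3 libraries of a group came from separate cultures, so the p-values measure the spread between these libraries, which may be technical.

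Total counts ran from 24810378 to 28532480 per library, and 15801 genes had enough reads for the test. Of 10 epithelial markers, 9 could be tested, and their summed level was 20669.8 to 21187 CPM in si_NC and 17402 to 18118 CPM in si_GRB2. Of the 9, 7 fell and 1 rose in edgeR, where 15.5% of all tested genes fell and 15.2% rose. The marker that rose was ERBB2 (HER2) itself, singled out after its value was seen, from 3499 ± 74.9 to 4140 ± 132 CPM (SD, n = 3). Of 15 blood cell markers, 12 were in the table and 8 of these averaged under 1 CPM, yet the summed level was 293.5 to 302 CPM in si_NC and 266 to 277 CPM in si_GRB2. Most of this sum was LCP1, CORO1A, CSF1R and VAV1, singled out after their values were seen. Their means were 128.9, 68.9, 62.7 and 35.4 CPM in si_NC and 123.3, 56.4, 54.3 and 37.5 CPM in si_GRB2. Summed levels of the nerve and endocrine markers were 4.24 to 5.24 and 6.01 to 6.48 CPM in the same groups, and those of the stroma and endothelium markers 35.5 to 37.3 and 23.5 to 26.9 CPM. Most of the last sum was 1 gene, CDH5, also singled out after its value was seen, with a mean of 28.4 CPM in si_NC and 18.5 CPM in si_GRB2. All libraries were of SK-BR-3, so these sums are levels of marker genes in bulk RNA of that line. They were not read as numbers of cells of another type.

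The catalytic signature is shown for the members whose counts changed and for PTPN2 and PTPN3, close relatives of PTPN1 and PTPN4, because it is the stretch the 2 classes have in common. The sequences are 30 bases of coding sequence of the canonical transcripts of GENCODE 44 (GRCh38), 5′ to 3′. The codon of the signature's cysteine, in the first or the second domain, is in capitals. Whether each domain is active was not tested.
PTPN1: gtgcacTGCagtgcaggcatcggcaggtct
PTPN2: atccacTGTagtgcaggcattgggcgctct
PTPN3: gttcacTGCagtgctggaataggtcgaacc
PTPN4: gtccatTGCagtgctggaatcggaagaact
PTPN13: acgcacTGCagtgctggcattggacgttca
PTPN18: gtccacTGCagtgcgggttgtgggcgaaca
PTPN6: gtgcacTGCagcgccggcatcggccgcaca
PTPRF, first domain: gtgcacTGCagcgcgggcgtgggccgcacc
PTPRF, second domain: gtgcacTGCagtgctggcgtgggccgcacc
PTPRU, first domain: atccacTGCagcgcgggcaccggccgcaca
PTPRU, second domain: gtgcacTGCctaaacgggggaggacgcagc
In PTPN1 the signature lies in exon 6 of 10, at chr20:50578564-50578593 on the plus strand, with the cysteine at codon 215. In PTPN2 it lies in exon 6 of 9 on the minus strand, at chr18:12817192-12817221, and shares 23 of 30 bases with that of PTPN1. In PTPN13 it lies in exon 46 of 48, at chr4:86809901-86809930 on the plus strand. The other signatures printed cross an exon junction, such as that between exons 25 and 26 of PTPN4, and were read from the spliced transcript.

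A signature was found in all 33 members, and 33 of the 40 copies crossed an exon junction. All 7 members with a second copy were receptors, and these 7 have tandem phosphatase domains. The search took only copies encoding histidine, cysteine and, at a set distance, arginine followed by serine or threonine. A second domain without this pattern would be missed, so the copies do not count the domains. The other first copies shared 19 to 25 of their 30 bases with PTPN1 and the second copies 14 to 24. The second copy of PTPRF shared 23 bases with PTPN1, whereas that of PTPRU shared 14, as few as that of PTPRK.

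Levels between genes were compared in the FPKM of the authors, which are scaled to gene length. SK-BR-3 cells carried a mixed set of these enzymes, with 17 members at a mean of at least 1 FPKM over the 6 libraries, 11 under 0.1 FPKM and 2 without an FPKM value. In si_NC, PTPN1 had the highest level, 26.4 ± 0.387 FPKM (SD, n = 3), followed by PTPRF at 21.6 ± 1.12 FPKM and PTPRA at 21.1 ± 0.885 FPKM. The libraries of PTPRF and PTPRA overlapped in this group, while those of PTPN1 lay above both. PTPN12 followed at 14.9 ± 0.461 FPKM, and PTPN18, PTPRK, PTPN6 and PTPN23 lay between 5.54 and 7.97 FPKM. In si_GRB2 the order at the top changed, with PTPRF at 24.7 ± 1.33 FPKM, PTPN1 at 22.7 ± 0.814 FPKM and PTPRA at 22.1 ± 0.693 FPKM. The libraries of PTPN1 overlapped with those of PTPRA and, at 23.56 to 26.13 FPKM against 22.20 to 23.67 FPKM, with those of PTPRF.

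**Figure D1:**
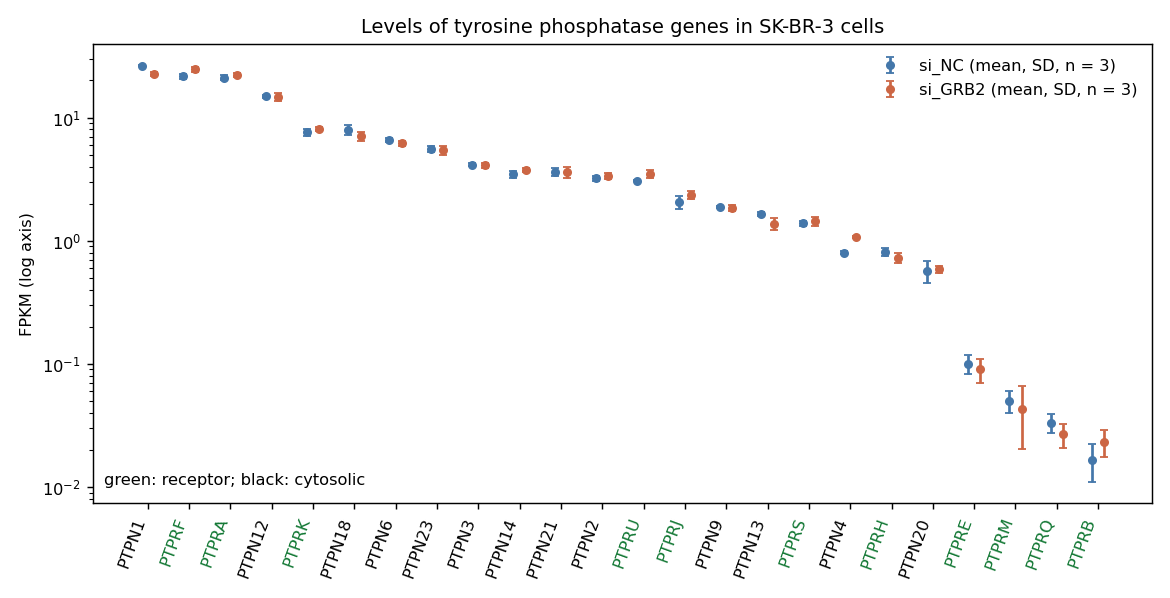
Level of each of the 24 tested members in FPKM on a log axis, as mean and SD over 3 libraries of si_NC (blue) and of si_GRB2 (orange), with receptor genes in green lettering and cytosolic genes in black. PTPN1, PTPRF and PTPRA stand at the top between 21 and 27 FPKM, and the levels drop from 0.567 FPKM for PTPN20 to 0.1 FPKM for PTPRE in si_NC.

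At the low end stood 9 genes, some of them known from other tissues. PTPRC (CD45, the phosphatase of leukocytes) had 2 reads over all 6 libraries, PTPN7 and PTPN22 (lymphocyte enzymes) had 5 and 17, and PTPRZ1 and PTPN5 (neural enzymes) had 2 and 1. PTPRN of endocrine secretory granules had 8 reads, PTPRO 7, PTPRR 12 and PTPRG 16. These 9 genes had too few reads to be tested, and a change in them was not detectable at this depth. The remaining 24 members, 11 receptor and 13 cytosolic, had between 60 and 48380 reads over the 6 libraries.

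The comparison of si_GRB2 with si_NC asked which of these genes moved when GRB2 was lowered. In the quasi-likelihood test of edgeR, with p-values adjusted after Benjamini and Hochberg over every tested gene, 7 of the 24 passed the limit of 0.05. Of these, 3 rose and 4 fell in si_GRB2. This is 29.2%, against 30.6% of all tested genes, so the family changed about as often as genes in general. None of the 24 (0 genes) met the limits for a DEG, taken as an adjusted p under 0.01 together with more than 1.5-fold in either direction in edgeR, which 2.52% of all tested genes met. At an unadjusted p under 0.05 in edgeR, 9 of the 24 were below the limit, against 39.4% of all tested genes. DESeq2, limma on FPKM and edgeR's glmTreat also gave 0 DEGs among them. The 95% interval of the fold change lay wholly inside 1.5-fold in either direction for 20 of the 24, all 13 cytosolic genes among them. The libraries of the groups did not overlap for 10 of the 24, against 42.3% of all tested genes.

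**Figure D2:**
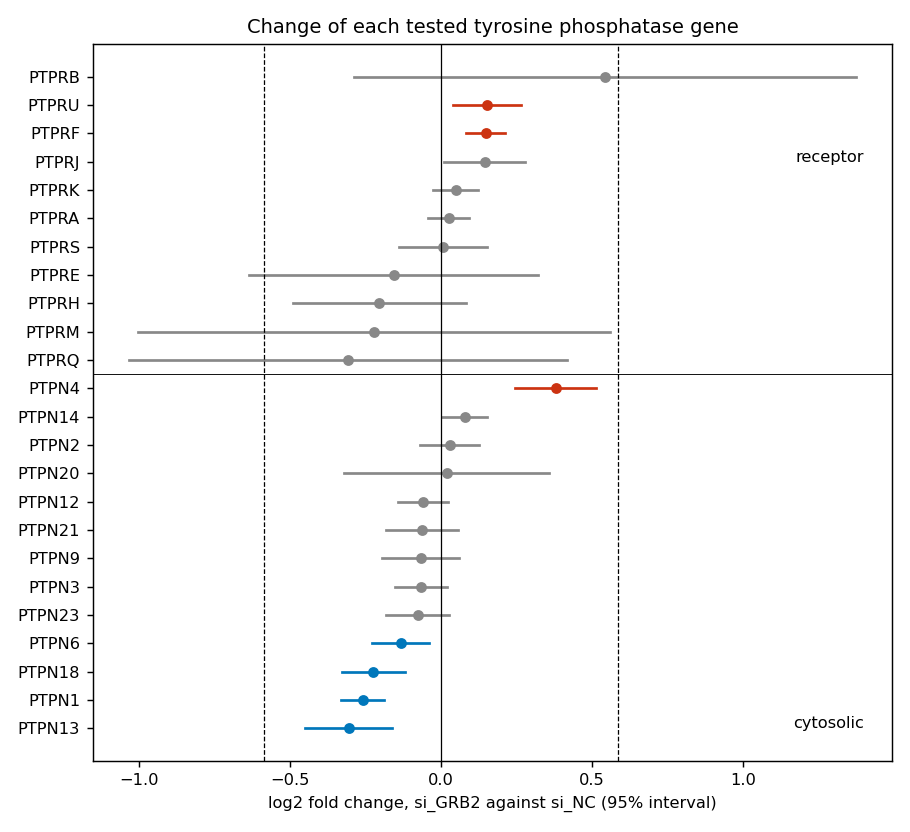
Log2 fold change of si_GRB2 against si_NC for each of the 24 tested members (points) with its 95% interval from edgeR (lines), red for an adjusted p under 0.05 and higher, blue for lower, grey for the rest; dashed lines mark a fold of 1.5 in either direction. The 4 genes that fell are all cytosolic, of 13 cytosolic genes tested, where 15.5% of all tested genes fell. The wide intervals belong to PTPRB, PTPRM, PTPRQ and PTPRE, which have few reads.

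Of the 13 tested cytosolic genes, 1 rose and 4 fell in edgeR, where 15.2% of all tested genes rose and 15.5% fell. PTPN1 was among those that fell. PTPN1 (PTP1B, ENSG00000196396.10, chromosome 20 of GRCh38 from 50510321 to 50585241) is anchored on the endoplasmic reticulum, acts on the insulin receptor and is needed for full ERBB2-driven mammary tumour growth in mice. It had 135.8, 133 and 129.8 CPM in si_NC and 112.5, 113.1 and 107.3 CPM in si_GRB2. The highest si_GRB2 value lay below the lowest si_NC value. The log2 fold change was −0.26 (edgeR, adjusted p = 2.07e-05, standard error 0.03), a fold of 0.835. Fits that omitted 1 library gave −0.28 to −0.24. PTPN2 (TC-PTP), the closest relative of PTPN1 and an enzyme that acts on JAK1, had 34.5, 34.8 and 35.4 CPM in si_NC and 34.7, 34.8 and 37.4 CPM in si_GRB2. Its groups overlapped, and its 95% interval ran from −0.07 to 0.13 on the log2 scale.

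PTPN13 (FAP-1), the largest cytosolic member, joins a FERM domain and several PDZ domains to its phosphatase domain. It had 19.3, 20 and 19.3 CPM in si_NC and 14.9, 17.3 and 15.1 CPM in si_GRB2. It fell by 0.31 on the log2 scale (edgeR, adjusted p = 0.0023, standard error 0.07), with all si_GRB2 libraries below all si_NC libraries. MAPK10 overlaps PTPN13 on the opposite strand with reads equal to 5.63% of those of PTPN13, and whether the counting used strand is not stated. PTPN13 was not called with limma on log2(FPKM + 1) (adjusted p = 0.112, limma), nor on log2(FPKM + 0.1) (adjusted p = 0.12, limma).

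PTPN18 (BDP1), a PEST-family enzyme known to dephosphorylate HER2, fell as well. It had 55.1, 55.1 and 60.2 CPM in si_NC and 45.5, 50.4 and 49.9 CPM in si_GRB2. The log2 fold change was −0.22 (edgeR, adjusted p = 0.00229, standard error 0.05), and the groups did not overlap. It was not called with limma on log2(FPKM + 1) (adjusted p = 0.179, limma). PTPN12 (PTP-PEST), which acts on BCAR1 and paxillin, is its relative. PTPN12 had 101.8, 104 and 100.8 CPM in si_NC and 92.9, 97.9 and 103.1 CPM in si_GRB2, with overlapping groups and a 95% interval from −0.14 to 0.02 on the log2 scale.

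PTPN6 (SHP1), an SH2-domain enzyme best known from blood cells and also made by epithelial cells, had 41.3, 40.4 and 41.5 CPM in si_NC. In si_GRB2 it had 37.5, 38.9 and 35.9 CPM, and the groups did not overlap. The log2 fold change was −0.13 (edgeR, adjusted p = 0.03, standard error 0.04). This call was lost without si_NC replicate 1, si_NC replicate 3, si_GRB2 replicate 1 or si_GRB2 replicate 3, where the adjusted p from edgeR ran from 0.0577 to 0.115, and with DESeq2 (adjusted p = 0.108). Of the blood cell markers 3 of 6 tested genes fell and 0 rose, and of the epithelial markers 7 of 9 fell and 1 rose, where 15.5% of all tested genes fell. The part of either list in the value of PTPN6 was not tested.

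PTPN4, a FERM and PDZ enzyme of the cell cortex, was the only cytosolic member that rose in edgeR. It had 13.5, 12.9 and 13 CPM in si_NC and 17.3, 17.3 and 16.8 CPM in si_GRB2, a fold of 1.30 and the largest change of any called member. The log2 fold change was 0.38 (edgeR, adjusted p = 0.000237, standard error 0.06), and fits that omitted 1 library gave 0.36 to 0.39. PTPN3, its nearest relative with the same domain order, had a log2 fold change of −0.07 with a 95% interval from −0.15 to 0.02 (edgeR). The reads of PTPN4 came to 0.263, 0.244 and 0.259 of those of PTPN3 in si_NC and to 0.356, 0.356 and 0.332 in si_GRB2. The groups of this ratio did not overlap.

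Such ratios within a library do not depend on how libraries are scaled. They were taken for 5 pairs, each a called member over a relative that was not called, so they describe those calls on another scale. The log2 ratio of PTPN4 to PTPN3 was higher in si_GRB2 by 0.45, that of PTPN1 to PTPN2 differed by −0.29, that of PTPN18 to PTPN12 by −0.16, and that of PTPRF to PTPRS by 0.14. The groups did not overlap in these 4 pairs. In the fifth pair, PTPRU to PTPRK, the difference was 0.10 and the groups overlapped (p = 0.3, exact test).

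The remaining cytosolic enzymes were not called. PTPN9 (MEG2), a vesicle-associated enzyme reported to act on ERBB receptors, had 21.4, 20.4 and 19 CPM in si_NC and 18.8, 19.8 and 19.3 CPM in si_GRB2. An unnamed long noncoding RNA gene overlaps PTPN9 on the same strand with reads equal to 50.3% of its own, so its count is uncertain. PTPN14 and PTPN21, FERM enzymes linked to cell junctions, had log2 fold changes of 0.08 and −0.06. The libraries of PTPN14 did not overlap between groups, with an adjusted p of 0.112 (edgeR). SPATA7 overlaps PTPN21 on the opposite strand with reads equal to 14.8% of its own. PTPN23, a BRO1-domain protein of endosomal sorting, had −0.08 with a 95% interval from −0.18 to 0.03. PTPN20 had 508 reads and has a near-identical pseudogene copy, so its value is uncertain.

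**Figure D3:**
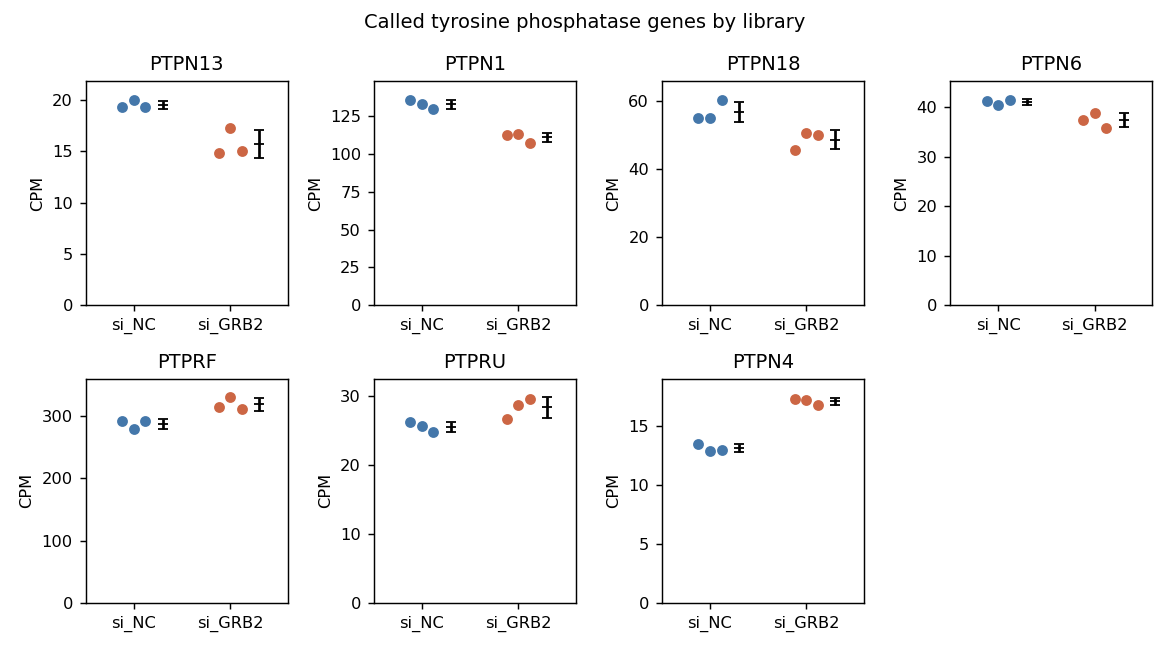
CPM of the 7 called members in each library (points; si_NC blue, si_GRB2 orange), with mean and SD over 3 libraries in black and axes from 0. In all 7 the groups did not overlap, against 42.3% of all tested genes, but the 7 were called on these same libraries. The gap is widest relative to the level in PTPN4.

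In the receptor class, 2 of the 11 tested genes rose and 0 fell, in edgeR, where 15.2% of all tested genes rose and 15.5% fell. At an unadjusted p under 0.05, 3 of the 11 were below the limit in edgeR, against 39.4% of all tested genes. PTPRF (LAR, ENSG00000142949.17, chromosome 1 from 43525187 to 43623666) is the founding member of a family with immunoglobulin and fibronectin repeats that sits at cell contacts. It had the most reads of all members, with 291.8, 278.8 and 292.9 CPM in si_NC and 314.7, 330.9 and 310.9 CPM in si_GRB2. All si_GRB2 libraries were above all si_NC libraries. The log2 fold change was 0.15 (edgeR, adjusted p = 0.00152, standard error 0.03), a rise of 10.8% with a 95% interval from 5.89% to 15.9%. PTPRS, of the same family, had a log2 fold change of 0.01 with a 95% interval from −0.14 to 0.15.

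PTPRU, a MAM-domain receptor of adherens junctions, had 26.1, 25.5 and 24.7 CPM in si_NC and 26.7, 28.7 and 29.5 CPM in si_GRB2. Its log2 fold change was 0.15 (edgeR, adjusted p = 0.0377, standard error 0.05). The lowest si_GRB2 library lay close above the highest si_NC library. The call was lost in 5 of the 6 fits that left out a library, with an adjusted p of up to 0.142 (edgeR). Of these 6, the fit without si_GRB2 replicate 1 kept it. The call was also lost with DESeq2 (adjusted p = 0.131). PTPRK, a MAM-domain receptor reported to act on EGFR, had 83.2, 82.8 and 86.6 CPM in si_NC and 86.5, 87.4 and 87.2 CPM in si_GRB2, with overlapping groups and a log2 fold change of 0.05.

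PTPRA, which activates SRC by removing its inhibitory phosphate, had 101.6, 103.9 and 103 CPM in si_NC and 104.1, 104.2 and 105.5 CPM in si_GRB2. Its groups did not overlap, but the log2 fold change was 0.02 with a 95% interval from −0.04 to 0.09, the narrowest of the receptors beside that of PTPRF. PTPRJ (DEP-1), which acts on several receptor kinases, had 24.4, 22.8 and 26.8 CPM in si_NC and 25.9, 26.8 and 29.1 CPM in si_GRB2. Its log2 fold change of 0.14 had an adjusted p of 0.1 (edgeR) and an adjusted p of 0.0207 without si_NC replicate 3. PTPRH had 651 reads and PTPRE 210, and the 95% interval of PTPRH ran from −0.49 to 0.08. For PTPRE, PTPRM, PTPRQ and PTPRB the interval reached beyond 1.5-fold on at least 1 side.

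The median log2 fold change was 0.02 over the 11 receptor genes and −0.07 over the 13 cytosolic genes, beside 0.0019 over all tested genes. Of the receptor genes 7 had a higher and 4 a lower mean in si_GRB2, and of the cytosolic genes 4 a higher and 9 a lower mean. In FPKM summed over each class, the receptor genes came to 57.8 ± 2.61 (SD, n = 3) in si_NC and 63.1 ± 2.62 in si_GRB2, and the cytosolic genes to 80.7 ± 2.9 and 75.8 ± 3.69. Both sums overlapped between groups. Their ratio, which does not depend on the library total, was 0.716, 0.708 and 0.725 in si_NC and 0.839, 0.827 and 0.832 in si_GRB2. The ratio was higher in every si_GRB2 library. PTPRF made up 37.3% of the receptor sum and PTPN1 32.7% of the cytosolic sum in si_NC. Without both genes the ratio was 0.665 to 0.669 in si_NC and 0.709 to 0.742 in si_GRB2. No test was made of the classes against each other, since the members were chosen with results known.

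**Figure D4:**
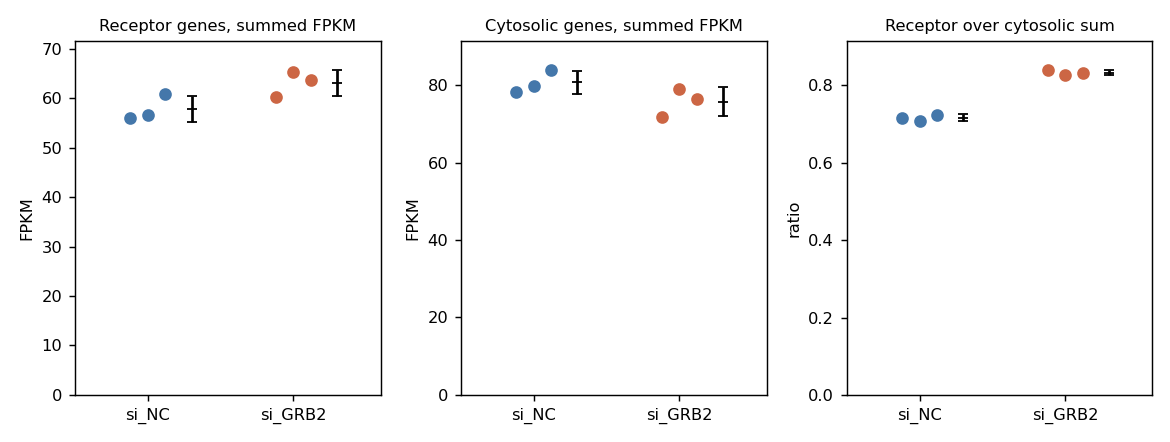
Summed FPKM of the receptor genes, of the cytosolic genes, and the ratio of the sums in each library (points; si_NC blue, si_GRB2 orange) with mean and SD over 3 libraries in black and axes from 0. The sums overlap between groups, while the ratio is 0.708 to 0.725 in si_NC and 0.827 to 0.839 in si_GRB2.

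A short sequence feature that the choice of members did not use is the match of a 3′ UTR to the seed (bases 2 to 8 of the guide) of the GRB2 siRNA whose sequence the methods give, the letters ACAGATC on the transcript strand. Among tested genes with a 3′ UTR in the canonical transcript, 8.12% of 12695 held it, and so did 2 of the 24 tested members, PTPN18 and PTPRJ. The 30 bases around each match are shown because 1 of the genes was called, with the matching letters in capitals.
PTPN18: gacagatataaACAGATCccctgctgaaca
PTPRJ: ctccaactcatACAGATCtcggagcggtcg
The match of PTPN18 lies in exon 15 at chr2:130373929-130373935 and that of PTPRJ in exon 25 at chr11:48169503-48169509, both on the plus strand of GRCh38. PTPN18 fell, and PTPRJ had a log2 fold change of 0.14. Over the 12695 tested genes with a 3′ UTR the median log2 fold change was −0.06 with a match and 0.01 without. Of the 1031 genes with a match, 131 rose and 309 fell in edgeR. Of the 11664 genes without, 2146 rose and 1964 fell. The part of the match in the value of PTPN18 was not tested.

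Other phosphatases with a tyrosine phosphatase fold or activity form a list of 47 genes, of which 42 had enough reads. In edgeR 7 rose and 6 fell, with a median log2 fold change of 0.01. This is 31.0% of those tested, close to the 30.6% of all tested genes, and a few single genes had larger changes than any called member. DUSP4 and DUSP5, nuclear phosphatases that act on ERK, had log2 fold changes of −0.92 and −0.74. DUSP4 had 73.9 ± 1.33 CPM in si_NC and 39.1 ± 1.5 CPM in si_GRB2 (SD, n = 3). MTMR14, a myotubularin-related lipid phosphatase, fell from 33.8 ± 1.79 to 16.7 ± 0.55 CPM (SD, n = 3), and its log2 fold change was −1.02. These 3 genes were the DEGs among the 42 tested, where 2.52% of all tested genes were DEGs. The largest of their adjusted p-values in edgeR was 4.13e-05, for DUSP5. MTM1, DUSP3 and PTP4A1 rose, with log2 fold changes of 0.56, 0.33 and 0.23.

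Among 33 kinases and substrates of tyrosine phosphatases, 28 were tested, and 7 rose and 3 fell in edgeR, with a median log2 fold change of 0.01. This is 35.7% of those tested, against 30.6% of all tested genes. CTTN (cortactin, an actin-binding substrate of SRC) fell from 229 ± 5.47 to 156 ± 3.05 CPM (SD, n = 3), or by 0.55 on the log2 scale, and CAV1 (caveolin) had −0.71. CAV1 was the only DEG among the 28 tested, where 2.52% of all tested genes were DEGs. STAT3 rose from 361 ± 1.75 to 452 ± 12.1 CPM (SD, n = 3), or by 0.33 on the log2 scale. CSK, the kinase that places the inhibitory phosphate on SRC, rose by 0.23 on the log2 scale, JAK1 by 0.22 and YES1 by 0.17. All 6 had an adjusted p of 0.00496 (YES1) or less in edgeR.

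Of 37 ligands and partners of the receptor class, 19 were tested, and 6 rose and 4 fell in edgeR, which is 52.6% of those tested against 30.6% of all tested genes, with a median log2 fold change of 0.08. The glypican GPC1 and the syndecan SDC1, heparan sulfate proteoglycans of the kind that LAR-family receptors bind, fell by 0.52 and 0.19 on the log2 scale. GPC6, another glypican, rose from 12.2 ± 1.01 to 17.3 ± 1.35 CPM (SD, n = 3), or by 0.50 on the log2 scale. The liprins, a family of scaffolds of which some bind LAR-family receptors, included PPFIA3 with a log2 fold change of 0.29 and PPFIBP1 with 0.29. IL1RAP, a ligand of LAR-family receptors at synapses, rose by 0.30 on the log2 scale. All 6 had an adjusted p of 0.00116 (PPFIBP1) or less in edgeR. The list held 2 DEGs among its 19 tested genes, where 2.52% of all tested genes were DEGs. Both are named here after their values were seen. These were MDK (midkine, a heparin-binding growth factor), with a log2 fold change of −0.80 (edgeR, adjusted p = 0.00444), and CNTN1 (contactin), with 0.59 (edgeR, adjusted p = 0.00178). Both were low, with MDK at 2.01 and CNTN1 at 4.83 CPM in si_NC.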

How the data were processed

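Per the paper's methods, the authors trimmed reads with FASTX-Toolkit, aligned them to GRCh38 with HISAT2 and used uniquely mapped reads. The authors deposited counts of reads per gene without normalization, and FPKM rounded to 2 decimals. The counting tool, its strand setting, the annotation release and the total behind FPKM are not given in the sources used here. Of the gene identifiers, 99.7% were found in GENCODE 44 on GRCh38, which gave positions and transcript sequences.

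TMM factors were computed with edgeR 4.0.16 in R 4.3.3, of 30327 genes 15801 passed filterByExpr, and the quasi-likelihood test compared 3 si_GRB2 with 3 si_NC libraries without covariates, with Benjamini-Hochberg adjustment over all genes kept. Standard errors are the log2 fold change divided by the square root of F, and 95% intervals use the fit's degrees of freedom. "Rose" and "fell" mean an adjusted p under 0.05. Every tested library pair of a group differed by more than sampling noise. Scripts were tested on simulated data.

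Alternatives were DESeq2 1.42.0, its size factors, other count filters, limma 3.58.1 on log2 FPKM (pseudocount 1 or 0.1, or 1 with mean FPKM at least 1), glmTreat, a replicate block and each library left out. Values per library are given for called members, the 3 highest of each class by FPKM and members linked to ERBB or SRC signalling, and for at most 6 called genes of each other list. The members, lists and rules were chosen with earlier results of these data known. The values of 1 cytosolic gene are not reported here, and PTPRD, PTPRT and PTPRN2 were not analysed here. Python 3.11.15, pandas 2.3.3 and matplotlib 3.10.9 made tables and figures.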

Additional observations from a re-analysis of the deposited data

How the results depend on the processing

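Of the 7 called genes, PTPN1, PTPN4 and PTPRF kept their direction and an adjusted p under 0.05 in every alternative that tested them against no change, PTPN4 not being tested in the limma fit restricted to genes averaging at least 1 FPKM. Against a fold of 1.5 (glmTreat), 0 of the 24 members and 0.513% of all tested genes were called. Over the alternatives without a fold limit, the largest adjusted p was 0.0104 for PTPN1, 0.0236 for PTPN4 and 0.0485 for PTPRF. The calls of PTPN13 and PTPN18 were lost only with limma on FPKM, and those of PTPN6 and PTPRU also with DESeq2 and without single libraries. The cause was not tested. Of all tested genes, 30.6% were called in the main fit and 27.3% with DESeq2. With limma this share was 16.7% on log2(FPKM + 1), 16.9% on log2(FPKM + 0.1) and 25.0% with a mean FPKM of at least 1. The number of called members was 5 with DESeq2, 3 with limma on log2(FPKM + 1), 3 with log2(FPKM + 0.1) and 2 with a mean FPKM of at least 1. Of these, 1 was lower in each of the 3 fits, always cytosolic, and 1 was a higher receptor gene, while with a mean FPKM of at least 1 the higher calls numbered 1 and the higher cytosolic calls 0, fewer members being tested there. Higher receptor calls numbered 1 with DESeq2, with no filter on low counts and with the replicate block, and 1 to 2 with each library left out. Called kinases and substrates numbered 6 in each limma fit, and called ligands and partners 6 with a mean FPKM of at least 1. The median log2 fold change of the receptor genes was 0.068 with log2(FPKM + 0.1) and 0.11 with a mean FPKM of at least 1, and that of the cytosolic genes was −0.0175 with log2(FPKM + 1), −0.022 with log2(FPKM + 0.1) and −0.0181 with a mean FPKM of at least 1. The median of all tested genes also moved up in these fits, to 0.0237, 0.0425 and 0.0364. PTPRS turned to −0.00078 with at least 10 counts in every library. With each library left out, the log2 fold changes of members near 0 changed sign, with −0.0269 to 0.0444 for PTPRS, −0.0068 to 0.0473 for PTPN2, −0.13 to 0.10 for PTPN20 and −0.10 to 0.00099 for PTPN21, none of them called. Same-numbered libraries did not deviate together (correlations of 0.377, −0.195 and 0.0598 across genes), and not every library correlated best with the one of its own number, so the numbers were not taken as pairs. With the replicate block, 6 members were called, and PTPRU was not (adjusted p = 0.0509, edgeR).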

Other observations

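Several of the members with too few reads to test lie across genes with more reads. For 5 of these 9, a gene on the opposite strand that overlaps the member had more reads over the 6 libraries than the member itself. PTPRG, a receptor with a carbonic anhydrase-like domain, had 16 reads, against 562 for PTPRG-AS1 and 150 for the pseudogene RPL10AP6. PTPRO had 7 reads against 945 for RERG, a RAS-related gene, PTPN22 had 17 against 86 for AP4B1-AS1, and PTPN5 had 1 against 22 for IGSF22-AS1. PTPRC had 2 reads against 4 for an unnamed long noncoding RNA gene. PTPRG-AS1 had enough reads to test, and its log2 fold change was −0.11 (edgeR, adjusted p = 0.606). Reads were made from strand-marking libraries, but whether the counting used the strand is not stated.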
